A study of Mus musculus with 4 samples.

Results

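Chemokine genes that endothelial cells can express, 7 in number, were followed through single-cell RNA sequencing of mouse brain vessels: Cxcl12, Cx3cl1, Cxcl16, Cxcl1, Cxcl10, Cxcl9 and Ccl2. They were taken from the deposited matrices by gene symbol, which gave 7 of the 32285 genes listed, and all 7 had at least 1 UMI (unique molecular identifier, which counts an RNA molecule once) in the cells kept. Both groups were C57BL6 mice, given either a diet with PLX5622 at 1200 ppm or a control diet, each for 1 month, and no ages are given in the labels. PLX5622 inhibits CSF1R, the receptor microglia depend on, and the study asked how loss of microglia changes brain vessels. Brain tissue without meninges, cerebellum and olfactory bulbs was dissociated, and cells carrying CD31, a surface protein of endothelial cells, were sorted and sequenced in 2 libraries per diet. The labels put 3 mice across the 2 libraries, so libraries of a diet may share animals, and the p-values below measure the spread between libraries, which may be technical.

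Chemokines are small secreted or membrane-anchored proteins that direct the movement of leukocytes through G protein-coupled receptors. Endothelial cells display them on heparan sulfate at the vessel wall, where they take part in leukocyte arrest. Some are made at rest, such as Cxcl12, while others, such as Cxcl1, Cxcl10 and Ccl2, are known as genes induced by NF-kB or interferon signalling. In the brain, leukocytes leave the blood mainly in post-capillary venules.

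The libraries held 19044018 and 26949278 UMIs for PLX5622 diet and 11186648 and 38600208 UMIs for control diet. Of their barcodes, 3989 and 3670 cells of PLX5622 diet and 1696 and 5509 cells of control diet passed the filters of 1000 UMIs, 500 genes and no more than 10% mitochondrial UMIs. Their median depth was 3834 and 5922 UMIs in PLX5622 diet libraries and 5184 and 5573 UMIs in control libraries. Each pair of libraries shared between 1 and 6 cell barcodes. As a check of the diet, the microglial complement gene C1qa had 0 and 0 UMIs over all deposited barcodes of PLX5622 diet, against 240 and 99 UMIs over those of control diet.

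Of the kept cells 90.4% were endothelial-like, and all 11 endothelial markers were found in their sums, at 21279 and 20608 CPM (UMIs of a gene in a summed class, scaled to a common total of 1000000) in PLX5622 diet and 20696 and 20867 CPM in control diet. Clusters were named from markers, with the chemokines and most of their pathway genes kept out of the clustering. The arterial-like class held 459 and 509 cells of PLX5622 diet and 252 and 835 of control diet. The capillary-like class held 2801 and 2412 cells against 1114 and 3602, and the venous-like class 246 and 299 against 151 and 511. Among the top 10 genes of the venous-like class by fold were the inflammation-related genes Lcn2, Vcam1, Ptgs2, Il1r1 and Icam1. Mural cells, which wrap the endothelium, were few after the CD31 sort, with 57 and 57 smooth muscle-like cells in PLX5622 diet and 34 and 55 in control diet. Pericyte-like cells numbered 34 and 20 in PLX5622 diet and 8 and 29 in control diet and were not tested.

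The chemokines differed in which class of vessel cell held their UMIs. Capillary-like cells, 66.8% of the kept cells, held 72.2% of the 250295 Cxcl12 UMIs, and venous-like cells, 8.12% of the kept cells, held 3.996%. Cxcl1 had 4029 UMIs, of which venous-like cells held 27.5%. They held 38.8% of the 276 Cxcl10 UMIs. Of 5824 Cx3cl1 UMIs, arterial-like cells, 13.8% of the kept cells, held 24.5%. Cxcl16 had 185 UMIs, Ccl2 had 171 and Cxcl9 had 1.

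Cxcl12 is the ligand of the receptor Cxcr4 and the scavenger Ackr3 and retains and guides leukocytes and progenitor cells. Its level in capillary-like cells was 3876 and 4152 CPM in PLX5622 diet and 3033 and 3152 CPM in control diet. In arterial-like cells it was 2853 and 3011 CPM in PLX5622 diet and 2654 and 2572 CPM in control diet. Venous-like cells had 796 and 764 CPM in PLX5622 diet and 864 and 938 CPM in control diet. The ranges of the 3 classes over the 4 libraries did not overlap, and the order capillary-like, arterial-like, venous-like held in 4 of 4 libraries, with means of 3553 ± 546, 2772 ± 198 and 841 ± 77.1 CPM (SD, n = 4).

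The share of cells with a Cxcl12 UMI, after each cell was thinned to 1000 UMIs, separated only the venous-like class. It was 85.3% and 85.9% of capillary-like cells in PLX5622 diet and 81.5% and 81.3% in control diet, against 85.2% and 85.9%, and 80.6% and 84.1%, of arterial-like cells. Venous-like cells were positive at 37.8% and 34.8% in PLX5622 diet and 35.1% and 40.7% in control diet. In all endothelial-like cells the thinned share was 81.8% and 81.0% in PLX5622 diet and 76.8% and 77.4% in control diet, and without thinning it was 92.9% and 94.4% against 92.3% and 93.3%. For comparison, smooth muscle-like cells, at median depths of 6311 and 9023 UMIs in PLX5622 diet and 8819 and 9572 UMIs in control diet, had thinned shares of 3.51%, 3.51%, 0% and 7.27%. The 0% in the first control library, 0 of 34 cells, allows a share of up to 8.82%. The endothelial-like medians were 3767 and 5766 UMIs in PLX5622 diet and 5069 and 5467 UMIs in control diet.

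**Figure D1:**
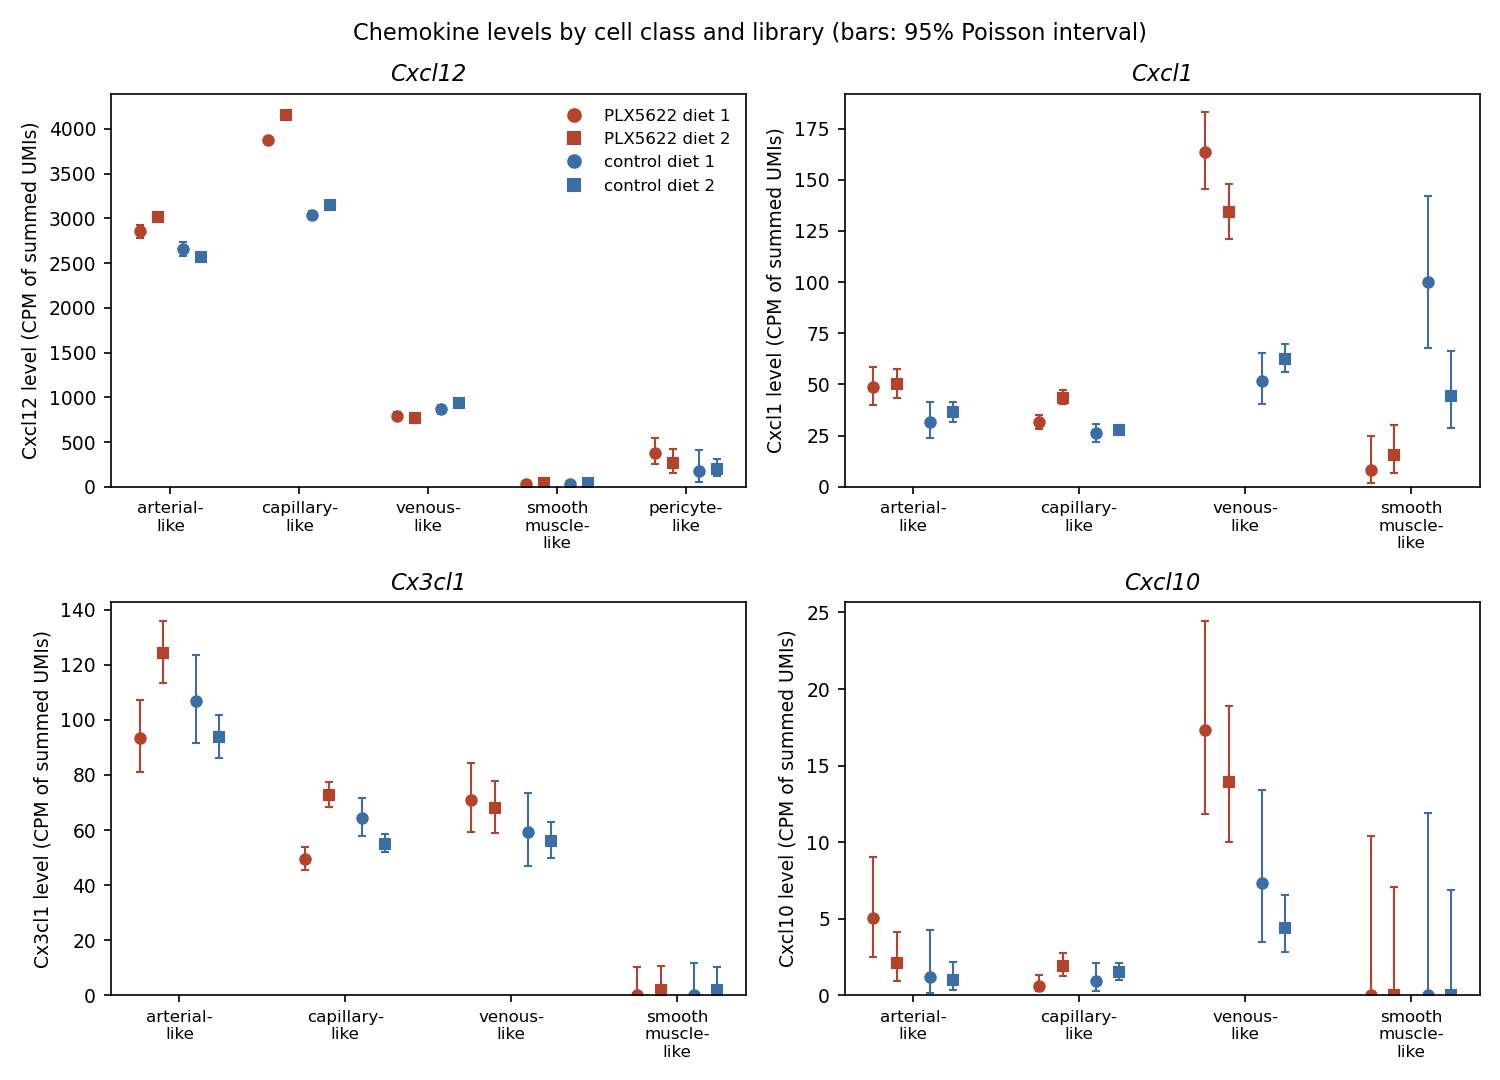
Levels of 4 chemokines in CPM of summed UMIs (y axis, linear) by cell class (x axis) in the 2 PLX5622 diet libraries (red) and the 2 control diet libraries (blue). Bars are 95% Poisson intervals that cover counting error only. Pericyte-like cells are drawn for Cxcl12 only. Cxcl12 is lowest among endothelial classes in venous-like cells, at 764 to 938 CPM, and Cxcl1 is highest there, at 51.9 to 164 CPM.

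In mural cells Cxcl12 was low, and endothelial RNA was found beside it. Smooth muscle-like cells had 36.6 and 38.4 CPM in PLX5622 diet and 35.5 and 44.6 CPM in control diet, from 11 to 24 UMIs per library. The endothelial claudin Cldn5 was present in the same sums at 33.8 and 53.8 CPM in PLX5622 diet and 25.8 and 22.3 CPM in control diet. Pericyte-like cells had 383 and 264 CPM of Cxcl12 in PLX5622 diet and 175 and 198 CPM in control diet, from 29 and 17, and 5 and 20, UMIs, with 3 or 4 Cldn5 UMIs a library. There were 7.25 and 4.25 Cxcl12 UMIs for each Cldn5 UMI in pericyte-like cells of PLX5622 diet and 1.67 and 5.0 in those of control diet, against 0.333 to 0.474 in endothelial-like cells. In smooth muscle-like cells the ratio was 1.08 and 0.714 in PLX5622 diet and 1.38 and 2.0 in control diet. Both mural classes lay above the endothelial range in each of the 4 libraries, on 3 or 4 Cldn5 UMIs in pericyte-like cells and 8 to 28 in smooth muscle-like cells. The ratio was not taken for free RNA, and the source of the mural Cxcl12 RNA was not tested.

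Cxcl12 did not pass the test for diet in any endothelial class, but its diet effect differed between zones. In endothelial-like cells it had 3340 and 3452 CPM in PLX5622 diet and 2600 and 2650 CPM in control diet. Both PLX5622 libraries lay above both controls. The log2 fold change of PLX5622 diet over control diet was 0.42 ± 0.15 (SE) with an adjusted p of 0.269 in edgeR's quasi-likelihood test, and DESeq2 gave an adjusted p of 0.00328. The edgeR log2 fold change was 0.42 ± 0.16 in capillary-like cells (adjusted p = 0.299, and 0.0152 with DESeq2) and 0.19 ± 0.15 in arterial-like cells (adjusted p = 0.908). In venous-like cells it was -0.18 ± 0.12 (adjusted p = 0.664), with both PLX5622 libraries below both controls.

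Tested within libraries, in 1 model of 12 sums with the library as a block, the diet effect on Cxcl12 in venous-like cells was lower than that in capillary-like cells by a log2 difference of -0.60 ± 0.06 (adjusted p = 7.6e-16). It was 1 of 2 among the 5 chemokines tested that passed in this contrast, in which 0.517% of 11596 genes did, against 1.1% for a zone difference of either kind. Leaving out each library in turn gave -0.67 to -0.50 and kept the call. The difference between arterial-like and capillary-like cells was -0.20 ± 0.05 (adjusted p = 0.0490, where 0.285% of genes passed) and was lost when any 1 of the 4 libraries was left out, at adjusted p between 0.102 and 0.786. Summed venous and capillary markers also differed between diets within the venous-like class, as given below with Cxcl1. The part of these marker differences in the Cxcl12 result was not tested. The higher Cxcl12 of PLX5622 diet was seen in each of the 3 capillary-like clusters. The cluster led by Tcim and Rgcc had 4409 and 4599 CPM in PLX5622 diet and 3396 and 3678 CPM in control diet. The cluster led by Angpt2 and Meox1 had 3240 and 3792 CPM against 2439 and 2311 CPM. The cluster of low depth had 4562 and 4462 CPM in PLX5622 diet and 3564 and 3854 CPM in control diet. Free RNA, estimated from barcodes under 100 UMIs and limited by smooth muscle genes, could make up at most 20.01 and 25.8 CPM of Cxcl12 in endothelial-like sums of PLX5622 diet and 12.4 and 12.5 CPM in those of control diet.

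Cx3cl1 encodes fractalkine, a membrane-anchored chemokine whose receptor Cx3cr1 marks microglia, and which is known in brain mainly from neurons. Among endothelial zones it was highest in arterial-like cells, with 93.5 and 124 CPM in PLX5622 diet and 107 and 93.8 CPM in control diet. Capillary-like cells had 49.5 and 72.9 CPM in PLX5622 diet and 64.4 and 55.1 CPM in control diet, and venous-like cells 70.9 and 67.8 against 59.2 and 56.1 CPM. The arterial-like range lay above both others, and the venous-like and capillary-like ranges overlapped, with means of 105 ± 14.5, 63.5 ± 7.01 and 60.4 ± 10.3 CPM (SD, n = 4).

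Smooth muscle-like cells held 0 and 1 Cx3cl1 UMIs in PLX5622 diet and 0 and 1 in control diet, and no cell was positive after thinning, against 4.82% and 7.13% of endothelial-like cells in PLX5622 diet and 7.23% and 5.49% in control diet. In endothelial-like cells Cx3cl1 had 61.6 and 83.7 CPM in PLX5622 diet and 72.8 and 62.8 CPM in control diet, so the groups overlapped. Its log2 fold change was 0.16 ± 0.12 (edgeR, adjusted p = 0.710), and no endothelial zone passed the test, at values between 0.10 and 0.30. Without the second PLX5622 library the endothelial-like value was -0.083.

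Cxcl16, a membrane-anchored ligand of Cxcr6 that also acts as a scavenger receptor, was near the limit of detection. Endothelial-like cells had 1.92 and 2.60 CPM in PLX5622 diet and 1.74 and 1.76 CPM in control diet, from 29 and 55 UMIs against 15 and 56. The log2 fold change was 0.41 ± 0.30 (edgeR, adjusted p = 0.692). Its 3 zones overlapped, and smooth muscle-like and pericyte-like cells held 0 UMIs.

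Cxcl1 and Cxcl10 are inducible genes. The stretch upstream of each start is shown beside that of Cxcl12, because both were called in venous-like cells while Cxcl12 was not. The genes shown were thus picked after their calls were seen, and a link between the matches and the calls was not tested. RefSeq windows (GRCm38.p6) were found for 5 of the 7 genes, not for Ccl2 and Cxcl16. Each is given 5′ to 3′ on the strand of the gene, in lower case, for the 250 bases before the start: Cxcl1 on the plus strand at chr5:90890995-90891244, Cxcl10 on the minus strand at chr5:92348890-92349139 and Cxcl12 on the plus strand at chr6:117168285-117168534. Capitals mark matches to the NF-kB consensus and to an interferon-stimulated response element written as GAAA, any 2 bases, then GAAA, searched on both strands.
Cxcl1: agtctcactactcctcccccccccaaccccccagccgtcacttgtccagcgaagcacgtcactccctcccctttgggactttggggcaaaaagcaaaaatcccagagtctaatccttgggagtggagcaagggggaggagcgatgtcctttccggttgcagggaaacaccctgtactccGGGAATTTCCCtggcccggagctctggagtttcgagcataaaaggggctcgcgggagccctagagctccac
Cxcl10: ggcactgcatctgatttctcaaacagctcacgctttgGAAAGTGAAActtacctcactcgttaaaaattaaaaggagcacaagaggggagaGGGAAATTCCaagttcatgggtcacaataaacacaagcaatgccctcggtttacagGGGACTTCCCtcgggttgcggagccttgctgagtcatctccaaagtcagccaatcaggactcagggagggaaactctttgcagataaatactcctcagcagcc
Cxcl12: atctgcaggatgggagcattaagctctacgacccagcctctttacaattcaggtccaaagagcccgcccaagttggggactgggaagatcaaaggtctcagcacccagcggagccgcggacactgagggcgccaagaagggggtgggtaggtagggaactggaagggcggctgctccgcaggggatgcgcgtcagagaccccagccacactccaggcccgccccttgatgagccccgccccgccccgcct
The Cxcl1 window holds 2 overlapping NF-kB matches on opposite strands, from 71 to 61 bases before the start, drawn as 1 run of capitals. The Cxcl10 window holds the interferon element 213 to 204 bases before the start and NF-kB matches at 159 to 150 and 103 to 94 bases. No match to either was found in the windows of Cxcl12, Cxcl9 and Cx3cl1. Of 32851 windows of this length, 3.90% hold the NF-kB consensus and 2.98% hold the interferon element, and a match is a description of letters, not a binding site.

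Cxcl1 is a ligand of Cxcr2 that draws neutrophils, and its gene lies in a cluster with its paralog Cxcl2 on chromosome 5. Venous-like cells had 164 and 134 CPM in PLX5622 diet and 51.9 and 62.6 CPM in control diet. Arterial-like cells had 48.6 and 50.1 CPM in PLX5622 diet and 31.8 and 36.4 CPM in control diet, and capillary-like cells 31.6 and 43.6 against 26.2 and 27.6 CPM. Venous-like cells lay highest in 4 of 4 libraries, at a mean of 103 ± 54.4 CPM over both diets, with no overlap with the arterial-like range, while arterial-like (41.7 ± 9.004) and capillary-like (32.2 ± 7.91 CPM; SD, n = 4) ranges overlapped.

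Few endothelial cells carried most of the Cxcl1 RNA. After thinning to 1000 UMIs, 3.04% and 3.57% of endothelial-like cells of PLX5622 diet and 2.32% and 2.35% of those of control diet had a Cxcl1 UMI, and without thinning 7.69% and 11.1% against 6.91% and 8.44%. The 1% of endothelial-like cells with the most Cxcl1 held 42.5% and 39.2% of its UMIs in PLX5622 diet and 49.3% and 40.2% in control diet. For Cxcl12 the same share was 4.77% to 5.26%, and for Cx3cl1 13.7% to 18.2%. Single cells reached 30 and 41 Cxcl1 UMIs in PLX5622 diet and 30 and 23 in control diet.

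**Figure D2:**
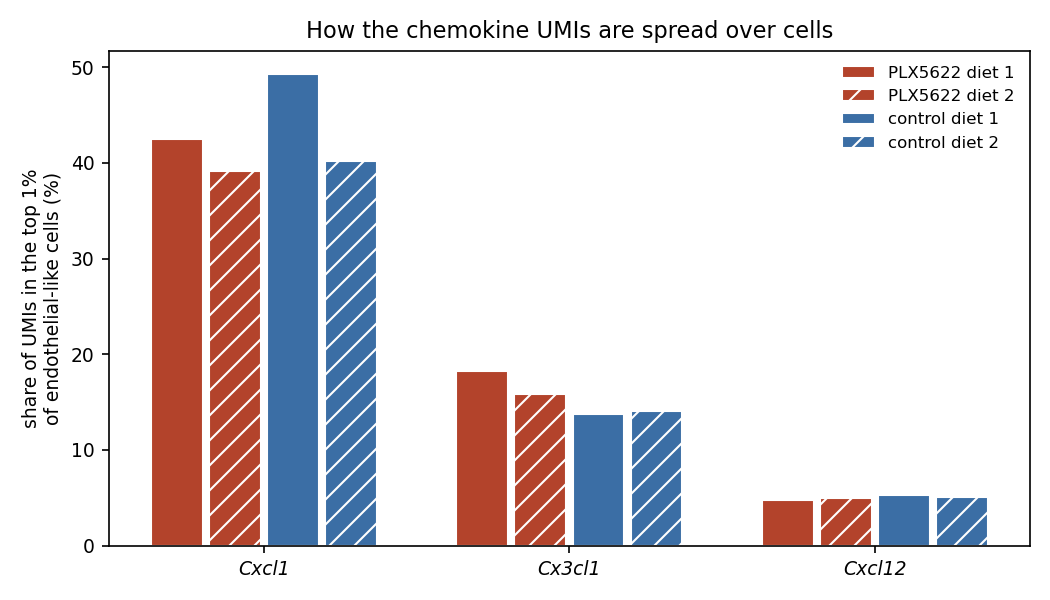
Share of a chemokine's UMIs (y axis, %) held by the 1% of endothelial-like cells with the most of it, for Cxcl1, Cx3cl1 and Cxcl12 (x axis) in each library, PLX5622 diet in red and control diet in blue, hatched for the second library. Cxcl1 stands at 39.2% to 49.3% in the 4 libraries and Cxcl12 at 4.77% to 5.26%.

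Cells with Cxcl1 had Cxcl2, its neighbour and paralog that also binds Cxcr2, at a higher share than cells without it. In thinned endothelial-like cells Cxcl2 was found in 10 of 109 and 11 of 117 Cxcl1-positive cells of PLX5622 diet and in 1 of 36 and 13 of 118 of control diet. Among Cxcl1-negative cells its share was 0.431% and 0.790% in PLX5622 diet and 0.198% and 0.367% in control diet. Median depths were 4341 and 6494 UMIs in positive cells of PLX5622 diet and 5799 and 6034 in those of control diet, against 3747 and 5744, and 5066 and 5451, in negative cells. Cxcl12 was found in 76.1% and 72.6% of Cxcl1-positive cells of PLX5622 diet and 63.9% and 65.3% of those of control diet, below its share in negative cells in each library. These shares pool cells of all zones. Venous-like cells had the highest mean levels of Cxcl1 and Cxcl2 and the lowest of Cxcl12 among the zones. The part of zone in these shares was not tested.

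Cxcl1 rose in endothelial-like cells of PLX5622 diet. It had 50.3 and 60.0 CPM in PLX5622 diet, from 762 and 1268 UMIs, and 31.1 and 35.9 CPM in control diet, from 268 and 1142 UMIs. The groups did not overlap, and the log2 fold change was 0.74 ± 0.11 (edgeR, adjusted p = 0.00194). Of the 5 chemokines that passed the low-count filter in these cells, Cxcl1 alone was called, where 1.06% of 12750 genes were called in either direction and 0.761% were higher. The call held in all 16 alternative fits, at log2 fold changes of 0.61 to 1.01 and adjusted p up to 0.0333. Free RNA could make up at most 0.826 and 0.794 CPM of Cxcl1 in PLX5622 diet and 0.473 and 0.382 CPM in control diet. Beside this, pericyte markers in the same sums were higher in PLX5622 diet, with 11 of 11 markers found and summed levels of 270 and 226 CPM against 201 and 198 CPM. Without the 2084 endothelial-like cells that carried at least 3 UMIs of mural or erythroid markers the Cxcl1 log2 fold change was 0.71 (adjusted p = 0.00446).

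In the separate zones the edgeR test called Cxcl1 in venous-like cells and in neither other zone. The venous-like log2 fold change was 1.34 ± 0.14 (adjusted p = 1.8e-08), and it kept its call when any 1 library was left out, at 1.196 to 1.57. After thinning, 11.4% and 8.70% of venous-like cells of PLX5622 diet had a Cxcl1 UMI, against 3.31% and 4.70% of those of control diet. Cxcl1 and Cxcl10 were 2 of the 4 chemokines tested in these cells that were called, where 1.27% of 10047 genes were. In arterial-like cells the value was 0.52 ± 0.17 (adjusted p = 0.187), and 0 of 3 chemokines tested were called where 0.684% of 10376 genes were. In capillary-like cells it was 0.52 ± 0.13 (adjusted p = 0.0590), and 0 of 5 were called where 1.3% of 12044 genes were, 0.847% higher and 0.448% lower. The difference between the venous-like and capillary-like effects was 0.81 ± 0.16 (adjusted p = 0.00165). It lost its call without the first PLX5622 library (0.49, adjusted p = 0.309) and without the second control library (0.94, adjusted p = 0.149).

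**Figure D3:**
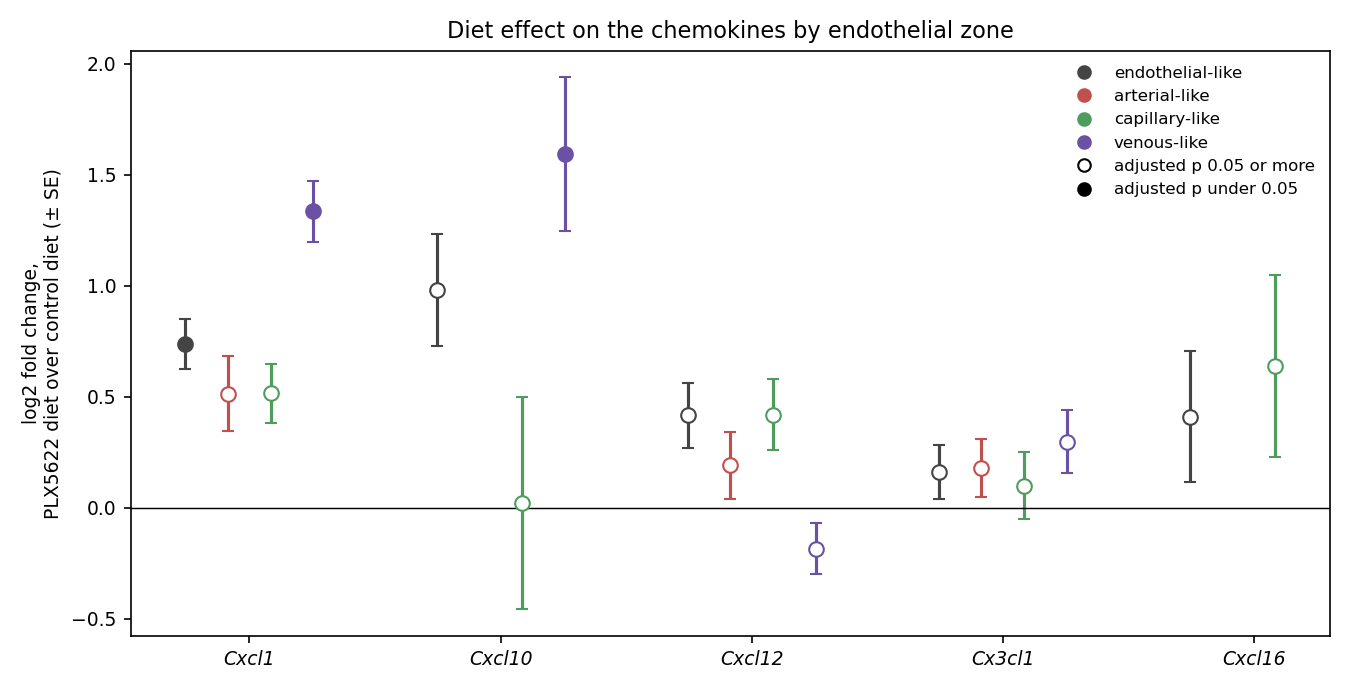
Log2 fold change of PLX5622 diet over control diet (y axis, ± SE from edgeR) for the 5 chemokines tested (x axis) in all endothelial-like cells and in the 3 zones, with filled points for an adjusted p under 0.05, no point where a gene was not tested, and 2 libraries per diet. Cxcl1 stands at 0.74 in endothelial-like and 1.34 in venous-like cells, and Cxcl12 at 0.42 in capillary-like and -0.18 in venous-like cells.

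The venous-like call was lost when a small group of cells was left out. At doubled clustering resolution the venous-like class held a small cluster of 100 cells led by Ackr1, Lrg1 and Lcn2, to which 28 of 246 and 41 of 299 venous-like cells of PLX5622 diet and 8 of 151 and 23 of 511 of control diet belonged. In this cluster Cxcl1 had 343 and 512 CPM in PLX5622 diet and 445 and 246 CPM in control diet, so the groups overlapped. The other venous-like cells had 140 and 57.2 CPM in PLX5622 diet and 24.98 and 51.04 CPM in control diet. The small cluster held 23.8% and 64.6% of the venous-like Cxcl1 UMIs in PLX5622 diet and 54.9% and 23.2% in control diet, so this share overlapped between diets. In the other venous-like cells both PLX5622 libraries lay above both controls, the second at 57.2 CPM against 51.04 CPM in the second control library. The log2 fold change there was 1.14 ± 0.73 (edgeR, adjusted p = 0.818), against 1.34 ± 0.14 in the whole class. At that error the fit cannot decide whether these cells kept the diet effect of the class. The difference from capillary-like cells was 0.57 ± 0.68 (adjusted p = 1.00). Without the small cluster the venous-like range also overlapped the arterial-like range of Cxcl1.

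Venous markers differed within the venous-like class as well. All 7 were found, at summed levels of 4774 and 4825 CPM in PLX5622 diet and 3852 and 4045 CPM in control diet, and the 7 capillary markers summed to 5958 and 6152 CPM against 7337 and 7280 CPM. The part of these markers in the result was not tested. Within the venous-like class, more cells of the small cluster and more Cxcl1 per cell cannot be told apart from these sums alone. Among all endothelial-like cells the Cxcl1 call was kept without the small cluster. Without it the levels were 46.2 and 49.1 CPM in PLX5622 diet and 26.8 and 33.8 CPM in control diet, with a log2 fold change of 0.66 ± 0.11 (adjusted p = 0.00535).

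In smooth muscle-like cells Cxcl1 fell, on few UMIs. Smooth muscle-like cells had 8.45 and 15.4 CPM in PLX5622 diet, from 3 and 8 UMIs, against 99.9 and 44.6 CPM in control diet, from 31 and 24 UMIs. The groups did not overlap and Cxcl1 fell by 2.37 ± 0.46 on the log2 scale (edgeR, adjusted p = 0.0124), as 1 of 3 genes called among 5665, or 0.053%, and 1 of the 2 chemokines tested. The call was lost with DESeq2 (adjusted p = 1.00), without the first control library (adjusted p = 0.195) and without the first PLX5622 library (adjusted p = 0.153). Pericyte-like cells held 3 and 0 Cxcl1 UMIs in PLX5622 diet and 0 and 3 in control diet. The unnamed mural cluster held 46 Cxcl1 UMIs in its 11 PLX5622 cells and 0 in its 3 control cells. Fibroblast-like cells went the other way, with 29 Cxcl1 UMIs in 1 of 7 PLX5622 cells and 98 in 4 of 8 control cells. Neither class was tested.

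Cxcl10, a ligand of Cxcr3 that draws T cells and is induced by interferon, was found in few cells. Venous-like cells had 17.3 and 13.9 CPM in PLX5622 diet, from 32 and 41 UMIs, and 7.31 and 4.42 CPM in control diet, from 10 and 24 UMIs. The groups did not overlap, and the log2 fold change was 1.59 ± 0.35 (edgeR, adjusted p = 0.00655). The call was lost with DESeq2 (adjusted p = 0.381), without the second control library (adjusted p = 0.388), without the first PLX5622 library (adjusted p = 0.0784) and without the small venous cluster (log2 fold change 0.83, adjusted p = 0.735). In the small cluster Cxcl10 had 8 and 33 UMIs in PLX5622 diet and 0 and 6 in control diet, with 13 in a single cell of the second PLX5622 library. The other venous-like cells had 14.7 and 3.27 CPM in PLX5622 diet and 7.81 and 3.52 CPM in control diet, so the groups overlapped there.

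Across all endothelial-like cells Cxcl10 had 3.43 and 4.02 CPM in PLX5622 diet and 1.97 and 1.92 CPM in control diet, with a log2 fold change of 0.98 ± 0.25 (edgeR, adjusted p = 0.0783). In capillary-like cells it had 0.643 and 1.91 CPM in PLX5622 diet and 0.917 and 1.496 CPM in control diet, so the groups overlapped. Its venous-like level was highest of the 3 zones in 4 of 4 libraries, at 10.7 ± 5.92 CPM, against 2.33 ± 1.87 in arterial-like and 1.24 ± 0.570 CPM in capillary-like cells (SD, n = 4). The venous-like and arterial-like ranges overlapped. After thinning, 1.63% and 0% of venous-like cells of PLX5622 diet and 0% and 0% of those of control diet had a Cxcl10 UMI. No UMI of it was found in smooth muscle-like or pericyte-like cells. An unnamed cluster of leukocytes and platelets held 36 of the 276 Cxcl10 UMIs, 33 of them in 2 of its 7 cells from the first control library.

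Cxcl9, the other interferon-induced Cxcr3 ligand examined, had 1 UMI in all kept cells, in a capillary-like cell of control diet, and was not tested. Ccl2, a ligand of Ccr2 that draws monocytes, was nearly absent from endothelial-like cells, with 1 and 0 UMIs in PLX5622 diet and 0 and 2 in control diet, and was not tested either. Most of its 171 UMIs came from a handful of other cells. Fibroblast-like cells held 131, of which 130 lay in 3 cells of the second control library, and 1 droplet of the first PLX5622 library that mixed pericyte and endothelial RNA held 25. An unnamed mural cluster held the remaining 12 outside endothelial-like cells, in 4 of its 11 PLX5622 cells, against 0 in its 3 control cells. The related gene Ccl7, which also binds Ccr2, had 32 of its 35 UMIs in the same fibroblast-like class.

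Of the 30 other chemokine ligands listed, 6 could be tested in endothelial-like cells and 0 were called, with a median log2 fold change of 0.13 against 0.0035 over all 12750 genes. The smallest p belonged to Ccl19, a ligand of Ccr7 (log2 fold change 1.35, adjusted p = 0.178), Cxcl2 (0.82, adjusted p = 0.522) and Ccl27a (-0.19, adjusted p = 0.632). In venous-like cells 4 were tested and 2 rose, where 0.906% of 10047 genes were higher. List genes called in venous-like cells alone are named, here and below, after their values were seen. Cxcl2 had 62.3 and 53.3 CPM in PLX5622 diet and 13.2 and 22.8 CPM in control diet, without overlap, and rose by 1.51 ± 0.19 (log2, edgeR, adjusted p = 1.4e-06). Its call held without any 1 library and, at 1.40, without the small venous cluster. Ccl19 had 18 and 51 UMIs in PLX5622 diet and 8 and 12 in control diet and rose by 2.20 ± 0.42 (adjusted p = 0.00124). That call was lost with DESeq2 (adjusted p = 0.209), without the second PLX5622 library (0.552) and without the second control library (0.389), and most of its UMIs lay in the small cluster, 13 and 41 against 5 and 7.

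Among 24 chemokine receptors and scavengers, 7 were tested in endothelial-like cells and 2 rose, where 0.761% of all 12750 genes were higher, with a median of 0.49. Ackr1, the atypical receptor of venules that binds Cxcl1, Ccl2 and other inflammatory chemokines, had 253 and 245 UMIs in PLX5622 diet and 3 and 48 in control diet. It rose by 3.54 ± 0.35 (log2, edgeR, adjusted p = 0.00134), with 250 and 239 of its UMIs in the small venous cluster in PLX5622 diet and 3 and 48 in control diet. Its call was lost at no more than 5% mitochondrial UMIs (adjusted p = 0.124) and with equal weight to the zones (0.299). Within that cluster its level was 1192 and 480 CPM in PLX5622 diet and 34.2 and 149 CPM in control diet. Cxcr4, the receptor of Cxcl12, had 30 and 36 UMIs in PLX5622 diet and 2 and 5 in control diet. It rose by 3.36 ± 0.50 (adjusted p = 0.00153), a call lost without the second control library (adjusted p = 0.09995), and DESeq2 gave it no adjusted p. Its UMIs lay in arterial-like cells, 10 and 21 against 1 and 3, and in capillary-like cells, 13 and 10 against 1 and 2, with 0 in venous-like cells and the remaining 7 and 5 of PLX5622 diet in endothelial-like cells of no named zone. In venous-like cells 2 of 4 tested receptors rose, Ackr1 and Gpr182, an endothelial scavenger of chemokines (log2 fold change 1.25, adjusted p = 0.0422), whose call was lost with DESeq2 (adjusted p = 0.765) and without any 1 library (0.114 to 0.296).

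Of 17 genes for shedding, cutting and heparan sulfate retention of chemokines, 13 were tested in endothelial-like cells and 0 were called, with a median of 0.057. The smallest p belonged to Sdc3 (log2 fold change 0.20), the chemokine-cutting peptidase Dpp4 (-0.24) and Sdc1 (-0.51).

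Genes of cytokine signalling that are known to act upstream of inducible chemokines changed in part. Of 25 NF-kB and cytokine receptor genes, all tested, 2 rose and 0 fell in endothelial-like cells, where 0.761% of all genes were higher and 0.298% lower, with a median of 0.022. Cebpd, a transcription factor of the acute-phase response, had 188 and 196 CPM in PLX5622 diet and 93.1 and 104 CPM in control diet and rose by 1.00 ± 0.10 (log2, edgeR, adjusted p = 3.0e-05). It was also called in each of the 3 zones, but in arterial-like cells the call was lost with DESeq2 (adjusted p = 0.848), without the first control library (0.145) and without the first or second PLX5622 library (0.222 and 0.201). Il1r1, the receptor of interleukin-1, had 26.7 and 28.2 CPM in PLX5622 diet and 17.3 and 17.7 CPM in control diet and rose by 0.68 ± 0.11 (adjusted p = 0.00422), a call lost without the small venous cluster (0.37, adjusted p = 0.218). In venous-like cells 3 of 24 rose, and Il1r1 stood at 148 and 147 CPM in PLX5622 diet and 62.1 and 70.8 CPM in control diet. Bcl3, an NF-kB cofactor, rose there by 1.21 ± 0.25 (adjusted p = 0.00356), which was lost without the small cluster (adjusted p = 0.0645), with DESeq2 (0.222) and without the second control library (0.157), while Cebpd and Il1r1 kept their calls.

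Of 28 interferon receptor, regulator and target genes, 27 were tested in endothelial-like cells and 4 rose, where 0.761% of all genes were higher, with a median of 0.12. These were the target genes Isg15 (log2 fold change 0.68, adjusted p = 0.0139), Usp18 (0.43, adjusted p = 0.0373), Bst2 (0.56, adjusted p = 0.0257) and Ifit1 (0.48, adjusted p = 0.0274). None of the 4 was called without the first control library, at adjusted p from 0.0922 to 0.123, or without the second PLX5622 library, at 0.0685 to 0.364. Isg15 had 293 and 358 CPM in PLX5622 diet and 186 and 230 CPM in control diet. In venous-like cells 5 of 27 rose, these 4 and Ifit3, where 0.906% of all genes were higher, with a median of 0.21 against -9.0e-05 over all genes tested there. Isg15 and Ifit1 kept their venous-like calls with DESeq2 and without any 1 library. Without the second PLX5622 library Bst2 (adjusted p = 0.135), Ifit3 (0.168) and Usp18 (0.352) lost theirs. Without the first control library Bst2 (0.0625) and Usp18 (0.0974) did, and Usp18 also did without the first PLX5622 library (0.0544) or the second control library (0.177).

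Immediate early and heat shock genes can be induced by dissociation. Of 24, all tested, 1 rose in endothelial-like cells, the heat shock gene Hspa1b (log2 fold change 0.51, adjusted p = 0.0273), where 0.761% of all genes were higher, and the median was -0.13. The call on Hspa1b was lost without either control library and without the first PLX5622 library, at adjusted p from 0.0914 to 0.341. The summed level of the 24 genes was 51271 and 45196 CPM in PLX5622 diet and 54136 and 55394 CPM in control diet. In venous-like cells it was 55183 and 47051 CPM against 58493 and 59708 CPM, and 1 of 24 rose, Hspa8, a call lost with DESeq2 (adjusted p = 1.00), without the first PLX5622 library (0.702) and without the first control library (0.244).

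**Figure D4:**
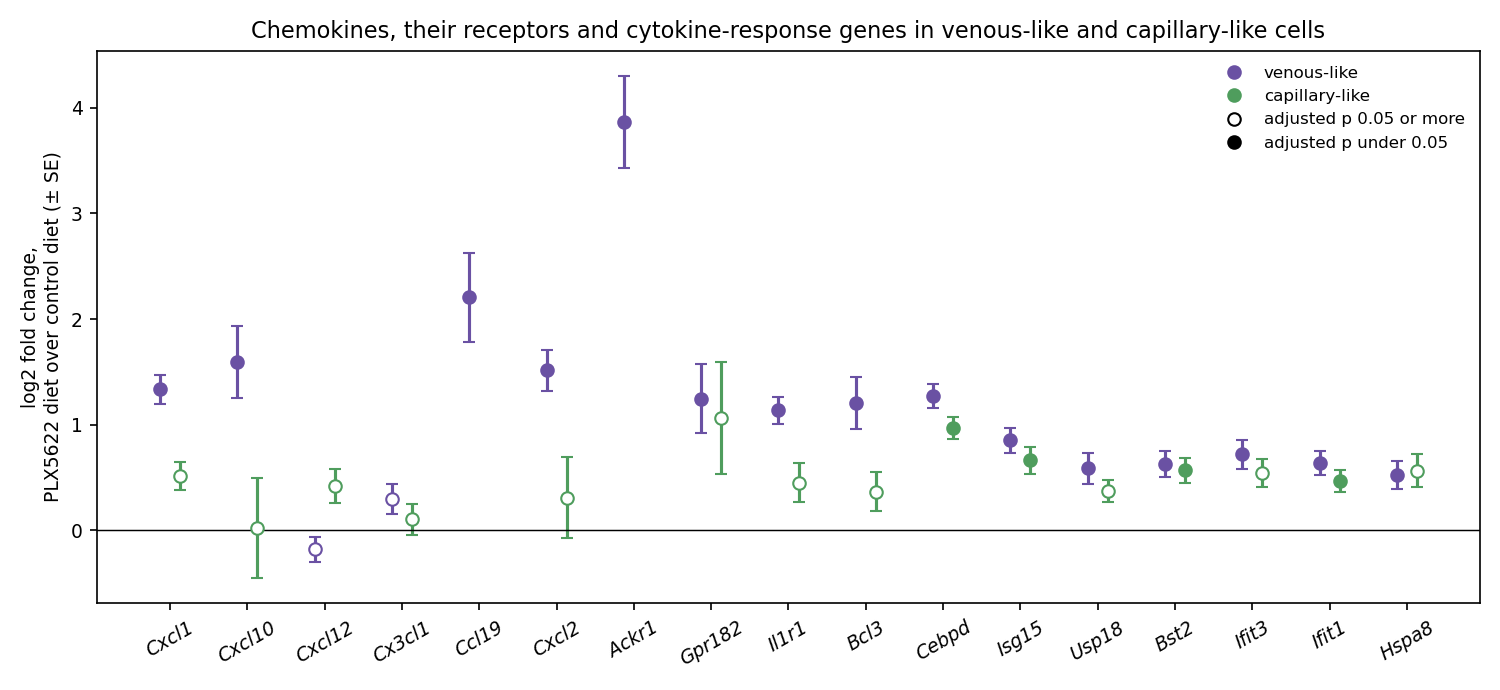
Log2 fold change of PLX5622 diet over control diet (y axis, ± SE from edgeR) in venous-like (purple) and capillary-like (green) cells for the 4 chemokines tested in venous-like cells and the 13 other listed genes called there (x axis), with filled points for an adjusted p under 0.05. Ccl19 and Ackr1 were not tested in capillary-like cells. Cxcl1 stands at 1.34 and Cxcl2 at 1.51 in venous-like cells, while Cebpd and Isg15 are called in both classes.

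The genes whose levels were most like each chemokine over the 20 sums of 5 classes and 4 libraries were named by Pearson's r among 6718 genes. This is a description, since sums of a library share its depth and processing, and endothelial and mural classes are mixed. Mural sums had at most 15.5 CPM of Cx3cl1 and 383 CPM of Cxcl12, against at least 61.6 and 2600 CPM in endothelial-like sums. The part of this class difference in r was not tested. For Cxcl1 they were Relb (0.92), Trappc11 (0.91) and Cd99l2 (0.91), and for Cxcl12 Eng (0.97), Myl12a (0.96) and Rgcc (0.95). For Cx3cl1 they were Aqp11, Nova2 and Xdh (each 0.98).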

How the data were processed

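Single-cell RNA libraries of CD31-sorted mouse brain cells were compared between PLX5622 diet and control diet, with 2 libraries each. The authors deposited raw UMI counts, as whole numbers for each gene in each of 567554 to 872190 barcodes per library, so no cells had been called. The file headers name Cell Ranger 4, while the submitters' processing notes name Cell Ranger 6.0.1 and Seurat 4.0 and the builds mm10 and mm39 with no role, and none of these says which annotation the reads were counted on. A 3′ count does not scale with transcript length, and levels are compared within a gene.

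Cells with at least 1000 UMIs, 500 genes and at most 10% mitochondrial UMIs were kept. They were clustered with Leiden (leidenalg 0.10.2, igraph 0.11.9, Python 3.11.15) on 2000 variable genes, 30 principal components and 15 neighbours at resolution 0.5, and endothelial cells again with 20 components. Mural cells were clustered again with 1500 genes, 10 neighbours and resolution 0.8. The chemokines, their receptors and the NF-kB, interferon and immediate early genes were kept out. So were mitochondrial, MHC, sterol and fatty acid genes and Lcn2, Ptgs2, Sele, Selp, Vcam1, Icam1 and Ch25h. Genes for shedding, cutting and heparan sulfate retention were not kept out. Clusters took their names from marker lists, with at least 3 markers at a fold of 4 in 25% of cells, or a fold of 1.2 in 5% for endothelial zones. Endothelial clusters as such were named by endothelial markers found in 25% of cells, without a fold. Mural cell types also needed most of their own markers. These thresholds were set after the clusters were seen. No doublet caller was run, clusters mixing cell types were set aside, and droplets with more than 1 cell remain.

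UMIs were summed per library and class, where every library gave 20 or more cells, and tested with edgeR 4.0.16 (R 4.3.3) quasi-likelihood using TMM factors, robust estimation, the default filter on low counts and p-values adjusted over all genes by Benjamini-Hochberg, two-sided at 0.05. Zone differences came from 1 model of 12 sums with the library as a block. DESeq2 1.42.0 and limma 3.58.1 (voom) served as alternatives, besides other scalings, filters, the replicate block and leaving out libraries. The fits without the low-depth capillary cluster and without the small venous cluster were added after seeing the data. The edgeR step was tested on simulated data. Intervals are 95% exact and cover counting error only.

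The 7 genes and the lists were chosen with earlier results of these data known. The naming rule took all 7 genes, every list gene called in endothelial-like cells or else up to 3 with the smallest p, and the 3 most alike genes for chemokines of at least 5 CPM, among genes of at least 20 CPM. Replicate numbers are not said in the labels to pair the libraries. The correlation of same-numbered deviations was 0.0458 over 12750 genes. It rests on 2 pairs and cannot decide whether equal numbers share a batch.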

Additional observations from a re-analysis of the deposited data

Results flagged for a closer look

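The diet effect on Cxcl12 differed between zones, by -0.60 ± 0.06 (log2, venous-like minus capillary-like, edgeR, adjusted p = 7.6e-16) and by -0.20 ± 0.05 (arterial-like minus capillary-like, adjusted p = 0.0490). The first difference was kept without each library and without the small venous cluster (-0.50, adjusted p = 2.4e-10). The second was lost without any 1 library. Venous and capillary markers also differed between diets within the venous-like class, and their part in the first difference was not tested.

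The diet effect on Cxcl1 differed by 0.81 ± 0.16 (venous-like minus capillary-like, adjusted p = 0.00165), and without the small venous cluster the difference was 0.57 (adjusted p = 1.00).

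Ccl19 had 248 UMIs in PLX5622 cells of the unnamed mural cluster, 19 in 4 cells of the first library and 229 in 7 cells of the second, with 10 of these 11 cells positive. The 3 control cells of that cluster, all from the second control library, held 0 Ccl19 UMIs, and the cluster was in no comparison. The same PLX5622 cells held 46 Cxcl1 UMIs in 5 cells, against 0 in the control cells. Fibroblast-like cells held 29 Cxcl1 UMIs in PLX5622 diet and 98 in control diet.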

How the results depend on the processing

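Of 257 alternative values for the chemokines, 223 kept their direction and their side of the threshold, 15 lost a call, 8 gained one and 11 changed sign, none of them a called value. With a library left out, Cx3cl1 ranged over -0.083 to 0.36 in endothelial-like, -0.064 to 0.36 in arterial-like and -0.22 to 0.34 in capillary-like cells, lowest without the second PLX5622 library, and -0.089 to 0.55 between venous-like and capillary-like cells, lowest without the first. The other sign changes were Cxcl10 in capillary-like cells (leave-one-out range -1.01 to 0.63), Cxcl12 in smooth muscle-like cells (-0.25 to 0.15, positive without the second control library), Cxcl16 between venous-like and capillary-like cells (-1.95 to 0.21, positive without the first control library), and Cxcl1 between arterial-like and capillary-like cells with RLE factors (-0.00407) or a library left out (-0.17 to 0.24).

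Genes called in endothelial-like cells numbered 135 and became 325 with no low-count filter, 350 with the replicate block and 71 to 198 with a library left out. With library totals 152 were called, 59.9% of them higher, against 71.9%. Arterial-like cells gave 71 calls, 8 with DESeq2 and 24 to 112 with a library left out. Capillary-like cells gave 156, then 264 with no filter, 87 with DESeq2, 327 with the block and 104 to 265 with a library left out. Venous-like cells gave 128, then 59 with DESeq2, 230 with the block and 55 to 121 with a library left out. Smooth muscle-like cells gave 3, then 11 with no filter, 9 with the block, 2 to 16 with a library left out and 0 with DESeq2, where 33 genes had an unadjusted p under 0.05 against 263 in edgeR. The zone difference gave 127 calls, 72 without the small venous cluster and 53 to 127 with a library left out.

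Of the other ligands 0 were called, and 2 with no filter, 1 with the block, 2 with equal weight to the zones and 0 to 2 with a library left out. Of the receptors 2 were called, and 1 with DESeq2 (which gave Cxcr4 no adjusted p), with at most 5% mitochondrial UMIs or without the small venous cluster, and 1 to 3 with a library left out. Of the NF-kB genes 2 were called, and 1 without the small venous cluster and 2 to 3 with a library left out. Of the interferon genes 4 were called, and 8 with no filter, 9 with the block and 0 to 8 with a library left out. Of the immediate early genes 1 was called, and 2 with no filter or the block, 0 with equal weight and 0 to 1 with a library left out. The cause of these changes was not tested. The labels do not say that libraries of equal replicate number share a batch, so the block is not a known pairing. Zone order by thinned share matched that by level for 2 of the 3 chemokines of at least 5 CPM, and at doubled resolution for 3. Fits of pericyte-like cells were not run, with 8 cells in the first control library. With 2 libraries a diet, Cxcl16 rests on 15 to 56 endothelial-like UMIs a library and Cxcl10 on 17 to 85, and small differences were not detectable at this depth.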
